A study of Mus musculus with 6 samples.

Results

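The genes described here are 10 genes of fatty acid activation and of the lipid side of ferroptosis, out of 54715 genes in the deposited count table. They were chosen by name, with no threshold on their values, but with earlier results of these data known. They are the long-chain acyl-CoA synthetases *Acsl1*, *Acsl3*, *Acsl4*, *Acsl5* and *Acsl6*, the lysophospholipid acyltransferase *Lpcat3*, and *Aifm2*, *Dhodh*, *Gch1* and *Alox15*. Each name matched 1 row, and all 10 passed the filter on low counts that left 16758 genes for testing. The fewest reads counted for any of them in any library was 53 and the most was 4028.

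The study asked what the loss of *Bdh2*, which encodes a 3-hydroxybutyrate dehydrogenase, does to mouse pluripotent cells. RNA-Seq was done on advanced embryonic stem cells (ASCs) derived from a cross of 129/sv females with GOF/GFP males, which carry an Oct4-GFP reporter. Wild-type (WT) ASCs and *Bdh2*-knockout ASCs were each measured in 3 replicates. The medium of both genotypes contained leukemia inhibitory factor, CHIR99021, activin A and BMP4, and the knockout line was expanded from 1 clone with small deletions on both alleles made by a pair of guide RNAs. Whether the replicates of a genotype came from separate cultures is not given in the sources used here, so the p-values measure the spread between these samples, which may be technical. A difference between the genotypes cannot be told apart from a difference between the knockout clone and the WT line.

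A fatty acid enters lipid metabolism only after an acyl-CoA synthetase has joined it to coenzyme A. ACSL4 prefers arachidonic and other polyunsaturated fatty acids, and LPCAT3 then inserts them into membrane phospholipids, where they can be peroxidized by iron-dependent chemistry or by lipoxygenases such as ALOX15. Ferroptosis is the form of cell death that follows when such lipid peroxides build up. GPX4 reduces them directly, and further systems act beside it by making radical-trapping molecules: AIFM2 (also known as FSP1) reduces coenzyme Q, DHODH does so in the mitochondrial inner membrane while it makes orotate for pyrimidines, and GCH1 carries out the first step of tetrahydrobiopterin synthesis.

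Libraries held between 18927748 and 28333541 counts on genes. The targeted gene *Bdh2* had 203, 193 and 209 counts in WT replicates 1 to 3 and 164, 136 and 129 counts in knockout replicates 1 to 3. Its normalized level fell by 0.79 on the log2 scale (SE 0.12, edgeR adjusted p = 2.46e-04), and transcripts of the gene were still counted in the knockout libraries. The gene-level count does not show the deletion itself. Pluripotency markers were abundant, with a summed level of 8368 to 8584 CPM (counts scaled to the TMM-normalized library size) in WT ASCs and 8782 to 8883 CPM in *Bdh2*-knockout ASCs, and these sums overlapped when counts were scaled to library totals. Of the 15 markers 9 were called higher and 1 lower, with the hepatocyte term 4 and 1, and with library totals in place of TMM 6 and 3. Of 18 markers of primitive endoderm, 16 were higher in the knockout and 1 was lower, the latter not called by DESeq2, and their summed level was 452 to 509.5 CPM in WT ASCs against 1025 to 1126 CPM in the knockout. Adult hepatocyte transcripts, although the labels name no liver cell, varied within each genotype, with sums of 657, 449 and 241 CPM in replicates 1 to 3 against 239, 387 and 250.2 CPM in the knockout. *Ass1*, looked at after its values were seen and the 1 gene of the 25 called higher, made up much of these sums, and the other 24 genes summed to 487, 293 and 40.7 CPM in WT ASCs and 30.5, 137 and 19.6 CPM in the knockout. The number of these genes called lower was not stable: it was 15 of 24 with edgeR, 1 with DESeq2, 2 with limma-voom and 23 with the replicate block, and it ranged from 1 to 24 when 1 library was left out. Albumin (*Alb*), a defining marker of hepatocytes, overlapped between the genotypes, at 331, 197 and 22.0 CPM in WT ASCs and 17.3, 88.3 and 8.68 CPM in the knockout. Summed levels of neural markers were 32.0 to 34.8 CPM in WT ASCs and 46.9 to 50.9 CPM in the knockout, those of fibroblast markers 31.9 to 36.1 and 23.9 to 29.2 CPM, and those of trophectoderm markers 161 to 186 and 169 to 176 CPM. Blood markers summed to 8.83 to 12.1 CPM in WT ASCs and 13.8 to 14.9 CPM in the knockout, with 1 of 2 tested markers called higher and 4 of 10 markers at no more than 3 counts in every library. In bulk RNA, fewer cells of a type and less RNA per cell cannot be told apart. The part of the primitive endoderm, neural, fibroblast, blood and hepatocyte transcripts in the results was not tested, except that the fold changes are also given with a hepatocyte term in the model, which moved none of the 10 genes across the threshold.

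Among the 10 genes, 7 were lower and 2 were higher in *Bdh2*-knockout ASCs, and *Acsl6* did not pass the test. The largest change was that of *Gch1*, whose level in the knockout was 30.9% of that in WT ASCs. *Aifm2* fell to 64.6%, whereas *Acsl5* rose to 155% and *Alox15* to 151%. The other genes that passed the test, *Acsl1*, *Dhodh*, *Acsl3*, *Lpcat3* and *Acsl4*, were at 76.6% to 90.1% of the WT level. These counts have to be read against a background in which 41.7% of all tested genes were called, 21.0% higher and 20.8% lower. In a fit to genes with a mean count of at least 50, as all 10 have, 50% of genes were called and 9 of the 10. The median log2 fold change was −0.22 over the 10 genes and −0.01 over all tested genes. Levels of the genotypes did not overlap for 9 of the 10 genes, beside 52.4% of all tested genes. When a change had to exceed 1.2-fold, 4 of the 10 genes were called, *Gch1* and *Aifm2* as lower and *Acsl5* and *Alox15* as higher, where 14.7% of all genes were.

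**Figure D1:**
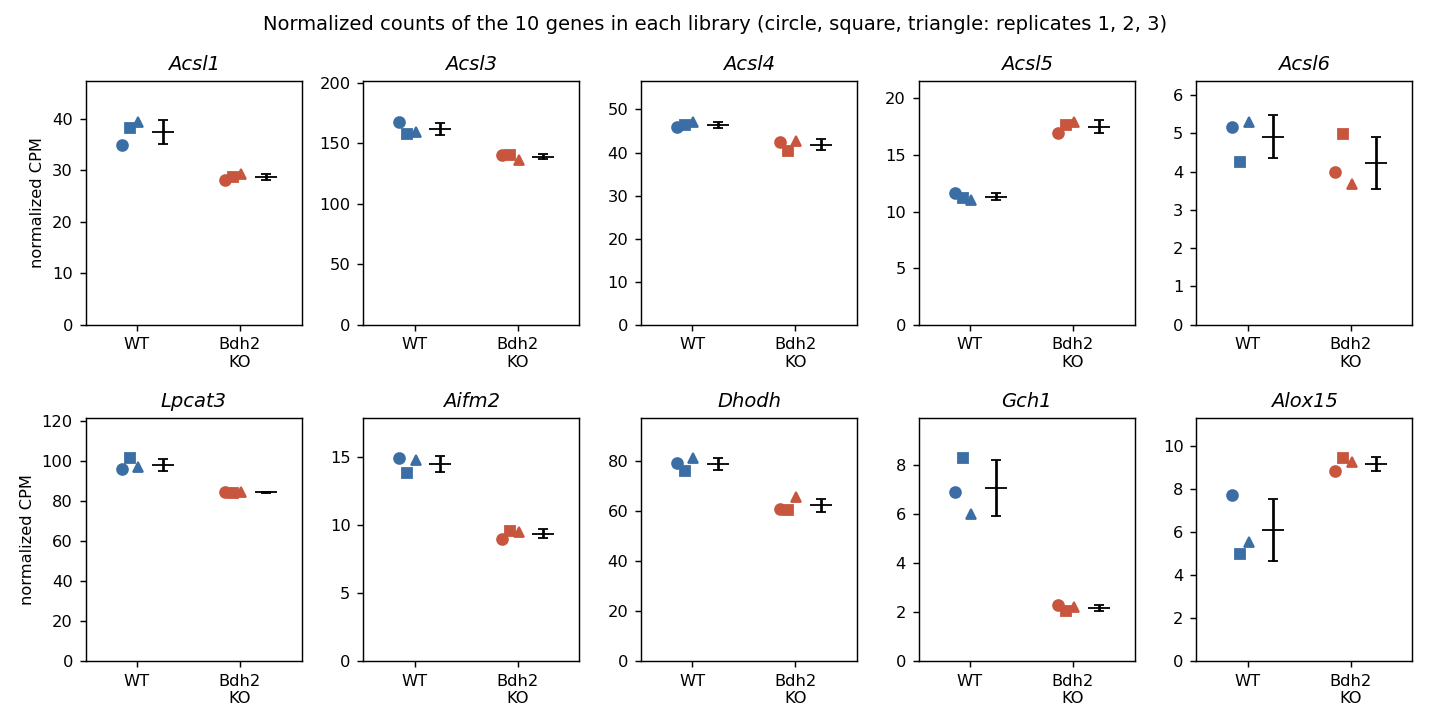
Normalized CPM (y axis, starting at 0, a separate scale for each gene) of the 10 genes in 3 WT and 3 *Bdh2*-knockout (KO) libraries; each symbol is 1 library, and the bar beside it gives the mean and SD. The 3 knockout libraries lie below the 3 WT libraries for *Acsl1*, *Acsl3*, *Acsl4*, *Lpcat3*, *Aifm2*, *Dhodh* and *Gch1* and above them for *Acsl5* and *Alox15*; for *Acsl6* 1 knockout library lies among the WT libraries and 2 lie below them.

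The promoters of the 3 genes with the largest changes that had a RefSeq promoter entry (GRCm38.p6) are shown because *Gch1* and *Aifm2* fell and *Acsl5* rose. Each line gives the 150 bases before the annotated transcript start, 5′ to 3′ in the direction of transcription, for *Gch1* at chr14:47189414-47189563 (minus strand), *Acsl5* at chr19:55253219-55253368 (plus strand) and *Aifm2* at chr10:61720499-61720648 (plus strand). Capitals mark matches on either strand to any of 8 motifs, here the CCAAT box and the GC box (GGGCGG or its complement).
Gch1: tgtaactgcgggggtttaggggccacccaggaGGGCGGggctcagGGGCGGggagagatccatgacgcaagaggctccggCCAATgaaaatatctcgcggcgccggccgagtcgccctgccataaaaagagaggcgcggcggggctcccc
Acsl5: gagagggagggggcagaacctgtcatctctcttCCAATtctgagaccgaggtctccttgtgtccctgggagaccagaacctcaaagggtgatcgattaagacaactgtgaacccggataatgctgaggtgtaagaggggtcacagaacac
Aifm2: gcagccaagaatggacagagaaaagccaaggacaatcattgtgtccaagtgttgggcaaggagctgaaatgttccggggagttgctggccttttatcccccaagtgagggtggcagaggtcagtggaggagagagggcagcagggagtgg
The *Gch1* sequence held GC boxes beginning 118 and 105 bases before the start and a CCAAT box 70 bases before it. The *Acsl5* sequence held a CCAAT box 117 bases before the start and no GC box in the 250 bases that were searched. No match to any of the 8 motifs was found in the 250 bases before this *Aifm2* start, which lies downstream of the start of the *Aifm2* gene in the count table (61715263). The *Acsl5* start used by RefSeq likewise lies downstream of the gene start in the count table (55251938), whereas that of *Gch1* is the same in both.

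RefSeq promoters were found for 8 of the 10 genes, 11 promoters in all, and *Alox15* and *Dhodh* had no entry. Over the 250 bases before the start, GC boxes were present in 8 of the 11 promoters, against 32.7% of 32851 mouse promoters, and CCAAT boxes in 7, against 33.9%. Alternative starts of *Acsl6* were each counted among the 8. The promoters with a GC box had a GC content of 57.2% to 75.6%, against a median of 52.4% over all promoters (upper quartile 61.2%). Whether base composition accounts for the share with GC boxes was not tested. GATA motifs (the letters GATA after A or T and before A or G) were found before *Acsl1*, *Acsl3* and *Gch1*, and in 26.5% of all promoters. They began 162, 52 and 246 bases before the start of these genes, that of *Gch1* outside the printed bases. A TATA motif (TATAAA, 12.4% of all promoters) was found before *Gch1*, beginning 188 bases before the start and outside the printed bases. *Acsl6* held a match to the core of the antioxidant response element (TGACNNNGC, 10.2% of all promoters), which overlapped a match to the AP-1 motif (TGAGTCA or TGACTCA, 4.46%). The cAMP response element TGACGTCA (1.55%) and the E-box CACGTG (6.02%) were found in 0 of the 11. These matches describe letters in the sequence and do not show that a factor binds there.

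*Gch1* (ENSMUSG00000037580, minus strand of chromosome 14, 47153895 to 47189413 in GRCm38) encodes GTP cyclohydrolase 1, which sets the rate of tetrahydrobiopterin synthesis. It was counted 134, 167 and 152 times in WT replicates 1 to 3 and 63, 56 and 53 times in knockout replicates 1 to 3. After TMM normalization, which adjusts library sizes for differences in composition, these were 6.90, 8.27 and 6.02 CPM in WT ASCs and 2.29, 2.05 and 2.21 CPM in *Bdh2*-knockout ASCs. The highest knockout library was therefore well below the lowest WT library, and the knockout libraries differed little among themselves. The log2 fold change was −1.69 (SE 0.16, adjusted p = 4.71e-06), and only 202 of the 16758 tested genes had a lower one. With a term for the hepatocyte transcripts in the model it was −1.58. Without the 3 libraries highest in hepatocyte transcripts (WT replicates 1 and 2 and knockout replicate 2), it was −1.42, with 1 WT library left. No exon of another gene covers *Gch1* in GENCODE M21.

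Of 9 other genes that make, recycle or regulate tetrahydrobiopterin, 1 was higher and 1 was lower, beside 21.0% and 20.8% of all tested genes, and the median log2 fold change was −0.15. That median was 0.07 with the hepatocyte term and 0.01 without the 3 libraries highest in hepatocyte transcripts. *Spr*, which encodes sepiapterin reductase, the last enzyme of the synthesis, rose from 61.3 ± 5.26 to 83.0 ± 2.10 CPM (SD, n = 3 each, edgeR adjusted p = 1.37e-04). *Qdpr*, which encodes the dihydropteridine reductase that recycles the cofactor, fell by 0.15 on the log2 scale (adjusted p = 0.0329), a call that was lost with the replicate block, without the filter on low counts and in 5 of 6 fits that left out 1 library (all but that without WT replicate 1). The first and last genes of the synthesis, *Gch1* and *Spr*, moved in opposite directions. On the length-corrected TPM scale, *Spr* transcripts exceeded *Gch1* transcripts 15.6, 11.96 and 19.5 times in the WT libraries and 63.9, 73.1 and 64.5 times in the knockout libraries. These ratios did not overlap (two-sided exact permutation p = 0.1, the smallest that 3 against 3 allows).

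*Aifm2* (ENSMUSG00000020085, plus strand of chromosome 10, 61715263 to 61739260) encodes the oxidoreductase that keeps coenzyme Q reduced at the plasma membrane. Its normalized levels were 14.9, 13.8 and 14.8 CPM in WT ASCs and 9.001, 9.57 and 9.51 CPM in the knockout. All knockout libraries were lower than all WT libraries, by more than the spread within either genotype. The log2 fold change was −0.63 (SE 0.08, adjusted p = 6.84e-05), and it was also −0.63 with the hepatocyte term. Exons of *H2afy2*, on the opposite strand, cover 5.65% of the *Aifm2* exon bases. *H2afy2*, which was looked at after its values were seen, fell by 0.34 on the log2 scale. Whether the authors counted reads by strand is not given in the sources used here.

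*Dhodh* (ENSMUSG00000031730, minus strand of chromosome 8, 109591343 to 109608673) encodes dihydroorotate dehydrogenase of the mitochondrial inner membrane. WT libraries had 79.2, 75.8 and 80.9 CPM and knockout libraries 60.8, 60.4 and 65.3 CPM. The ranges were apart, although the drop was modest, with a log2 fold change of −0.34 (SE 0.05, adjusted p = 2.69e-04) that was −0.38 with the hepatocyte term. It did not pass the test against 1.2-fold (adjusted p = 0.129).

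Genes next to *Aifm2* and *Dhodh* in their pathways are given beside the 21.0% of all tested genes that were higher and the 20.8% that were lower. Among 14 genes of coenzyme Q synthesis and transport, 3 rose, 4 fell and 7 did not pass the test, with a median of −0.08. With 1 library left out, 2 to 3 rose and 2 to 4 fell (3 and 2 without knockout replicate 1), and with library totals in place of TMM 2 rose and 7 fell. *Coq2*, whose product attaches the isoprenoid tail, fell by 0.55 (SE 0.06, adjusted p = 2.32e-05), and *Coq10a*, which encodes a coenzyme Q binding protein, also fell by 0.55. The genes *Coq4* and *Coq7*, whose products act in the later steps, rose by 0.35 and 0.31. Of 8 further genes of pyrimidine synthesis, 3 rose and 1 fell, with a median of 0.16, and 2 to 4 rose and 0 to 1 fell with 1 library left out. *Umps*, which encodes the enzyme that acts on the orotate made by DHODH, rose from 121 ± 8.42 to 159 ± 1.26 CPM (SD, n = 3 each, edgeR adjusted p = 1.31e-04), opposite to *Dhodh*. The TPM of *Umps* was 2.88, 2.67 and 2.84 times that of *Dhodh* in the WT libraries and 4.72, 4.81 and 4.45 times in the knockout libraries. *Nme1*, a nucleoside diphosphate kinase gene, rose by 0.27, and *Ctps2*, a CTP synthase gene, fell by 0.27, a call lost without knockout replicate 1 or 2.

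The 3 genes *Aifm2*, *Dhodh* and *Gch1* were each called lower in *Bdh2*-knockout ASCs, where 20.8% of all tested genes were, and *Dhodh* was not called against 1.2-fold. The gene for the central enzyme of that defence, *Gpx4*, was by far more abundant and did not pass the test. It had 241, 244 and 219 CPM in WT ASCs and 225, 209 and 223 CPM in the knockout, which overlapped. The log2 fold change of *Gpx4* was −0.10, with a 95% interval from −0.22 to 0.02 (adjusted p = 0.16).

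**Figure D2:**
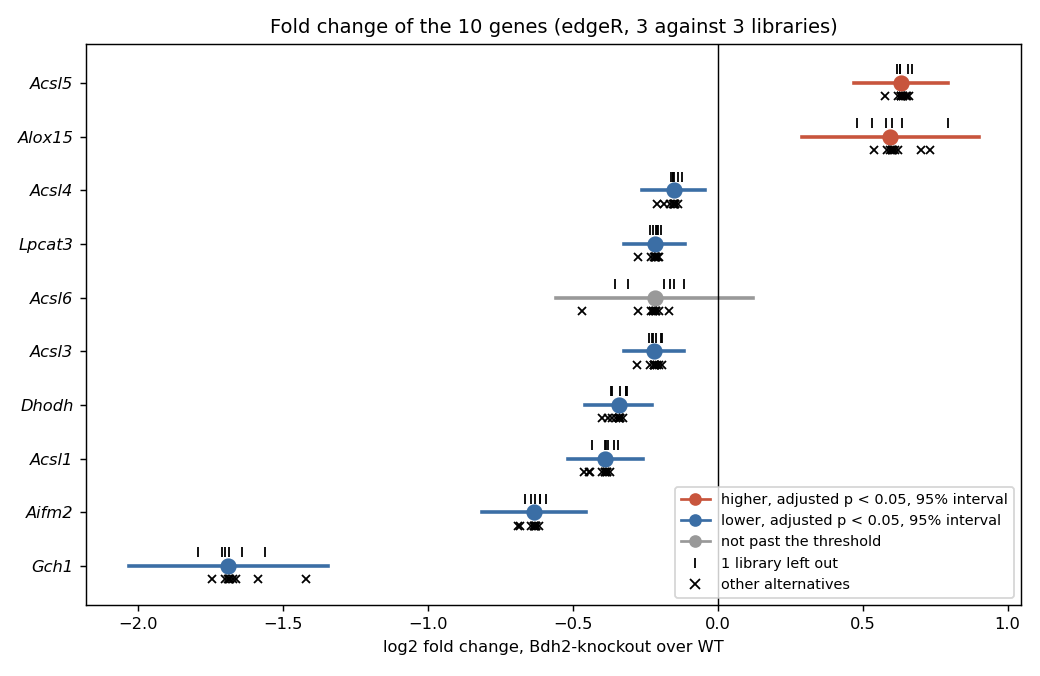
Log2 fold change (x axis, *Bdh2*-knockout over WT) of each of the 10 genes with its 95% interval from edgeR; ticks above a bar are fits with 1 library left out, and crosses below it are the other alternatives. *Gch1* lies at −1.69, *Aifm2* at −0.63, *Acsl5* at 0.63 and *Alox15* at 0.60, and the other genes lie between −0.39 and −0.15.

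The Acsl isozyme genes did not move together. *Acsl1* (ENSMUSG00000018796, plus strand of chromosome 8, 46471037 to 46536051), whose product serves triglyceride synthesis and fatty acid oxidation in liver, fat and heart, gave 678, 769 and 996 counts in WT replicates and 775, 784 and 701 counts in knockout replicates. After normalization WT libraries had 34.9, 38.1 and 39.4 CPM and knockout libraries 28.1, 28.8 and 29.3 CPM. Raw counts overlapped in libraries of unequal depth, whereas the normalized levels did not. The change was −0.39 on the log2 scale (SE 0.06, adjusted p = 2.44e-04). It was −0.44 with the hepatocyte term and −0.46 without the 3 libraries highest in hepatocyte transcripts.

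*Acsl5* (ENSMUSG00000024981, plus strand of chromosome 19, 55251938 to 55297720), which encodes a synthetase of mitochondria and endoplasmic reticulum best known from intestine and liver, changed the other way. It was counted 226, 226 and 279 times in WT replicates and 466, 482 and 430 times in knockout replicates. Normalized, this was 11.6, 11.2 and 11.04 CPM against 16.9, 17.7 and 17.9 CPM. Even the lowest knockout library exceeded the highest WT library, and the 3 libraries of each genotype were close together. This was a log2 fold change of 0.63 (SE 0.07, adjusted p = 3.08e-05) and 0.66 with the hepatocyte term. Of its exon bases, 8.31% are also exon of *Zdhhc6* on the other strand. *Zdhhc6*, looked at after its values were seen, fell by 0.13 on the log2 scale, opposite to *Acsl5*.

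*Acsl3* (ENSMUSG00000032883, plus strand of chromosome 1, 78657825 to 78707743), whose product works at the endoplasmic reticulum and on lipid droplets and favours monounsaturated fatty acids, was the most abundant of the 10 genes. It had 168, 158 and 159 CPM in WT ASCs and 140, 140 and 136 CPM in the knockout. The fall was small but clear of the spread, with a log2 fold change of −0.22 (SE 0.05, adjusted p = 0.00281) that was −0.19 with the hepatocyte term. Reads from *Acsl3* could be shared with *Utp14b*, a gene on the same strand whose exons cover 5.6% of its exon bases and whose transcripts hold 4.05% of its 50-base stretches. *Utp14b*, looked at after its values were seen, rose by 0.51 on the log2 scale while *Acsl3* fell.

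*Acsl4* (ENSMUSG00000031278, minus strand of the X chromosome, 142317993 to 142390535), which encodes the synthetase of polyunsaturated fatty acids that is required for ferroptosis in many cells, had 45.8, 46.4 and 47.2 CPM in WT ASCs and 42.5, 40.3 and 42.6 CPM in the knockout. The ranges did not touch, but they lay close together. Its log2 fold change was −0.15 (SE 0.05, adjusted p = 0.0274, 95% interval −0.26 to −0.04), and −0.19 with the hepatocyte term (edgeR adjusted p = 0.0429). Without the 3 libraries highest in hepatocyte transcripts, with 1 WT library left, it was −0.15. This call was the least firm of the 9. It was lost with DESeq2 (adjusted p = 0.0837), with the replicate block (adjusted p = 0.0661) and without the filter on low counts (adjusted p = 0.109). It was also lost in the test against 1.2-fold and whenever any 1 of the 6 libraries was left out (highest adjusted p = 0.137). The direction was kept in all of them.

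*Acsl6* (ENSMUSG00000020333, plus strand of chromosome 11, 54303798 to 54364756), best known as the isozyme of brain, was the lowest of the family. WT libraries had 5.15, 4.26 and 5.30 CPM and knockout libraries 3.99, 4.99 and 3.67 CPM. One knockout library lay above the lowest WT library, and the genotypes could not be separated. The log2 fold change was −0.22 with a 95% interval from −0.56 to 0.12 (adjusted p = 0.287), which leaves room for a fall as large as that of *Acsl1* as well as for no change. With the hepatocyte term the estimate was −0.17. Without the 3 libraries highest in hepatocyte transcripts, with 1 WT library left, it was −0.47. It ranged from −0.35 (without knockout replicate 2) to −0.12 (without knockout replicate 3) when 1 library was left out.

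To compare isozymes with each other, counts were divided by the gene length listed in the table and scaled to the same total in each library (TPM). Summed over the 5 isozymes, the level was 157, 150 and 155 TPM in WT ASCs and 134, 137 and 137 TPM in *Bdh2*-knockout ASCs. The sum was thus lower in every knockout library, at 88.3% of the WT mean (two-sided exact permutation p = 0.1, the smallest possible). *Acsl3* made up 71.2% ± 0.974 (SD, n = 3) of this sum in WT ASCs and 68.7% ± 0.656 in the knockout. *Acsl4* held 16.5% ± 0.495 and 16.7% ± 0.586, which overlapped.

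On this length-corrected scale the order of *Acsl1* and *Acsl5* differed between the genotypes. *Acsl1* held 6.26, 7.10 and 7.25% of the sum in WT ASCs and 5.76, 5.89 and 6.06% in the knockout. *Acsl5* held 4.50, 4.50 and 4.38% in WT ASCs and 7.47, 7.81 and 8.02% in the knockout. In TPM there was more *Acsl1* than *Acsl5* in every WT library, and more *Acsl5* than *Acsl1* in every knockout library. This order depends on the listed lengths, 10483 bases for *Acsl1* and 4864 bases for *Acsl5*: as shares of the raw Acsl counts, *Acsl1* exceeded *Acsl5* in both genotypes, at 14.3% and 4.31% in WT ASCs and 12.4% and 7.58% in the knockout. The ratio of *Acsl5* to *Acsl1* in TPM was 0.718, 0.633 and 0.604 in WT ASCs and 1.30, 1.32 and 1.32 in the knockout. For the shares of *Acsl1*, *Acsl3* and *Acsl5*, which did not overlap, the two-sided exact permutation test gave p = 0.1 each, the smallest that 3 against 3 allows, and 0.167 after Benjamini-Hochberg adjustment over the 5 shares.

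**Figure D3:**
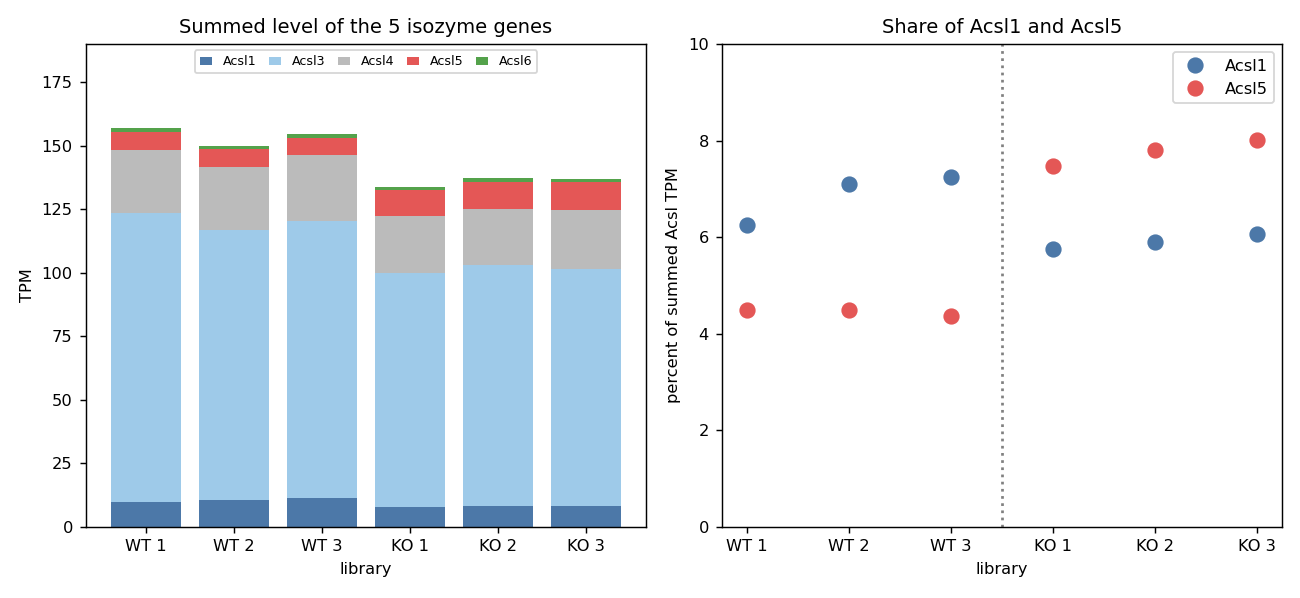
Left, TPM (y axis) of the 5 Acsl genes stacked for each library; right, the share of the summed Acsl TPM (y axis, percent) held by *Acsl1* and *Acsl5* in each library, with WT to the left of the dotted line. The summed level is 150 to 157 TPM in WT and 134 to 137 TPM in the knockout, and in TPM the *Acsl5* points lie below those of *Acsl1* in WT and above them in the knockout.

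*Lpcat3* (ENSMUSG00000004270, plus strand of chromosome 6, 124663027 to 124704418), whose product puts polyunsaturated acyl chains into lysophospholipids, had 95.8, 101 and 97.2 CPM in WT ASCs. The knockout libraries had 84.4, 84.1 and 84.5 CPM, almost the same value in each and below every WT library. The log2 fold change was −0.22 (SE 0.05, adjusted p = 0.00334), and it was −0.22 with the hepatocyte term. Exons of *Emg1*, on the opposite strand, cover 10.2% of the *Lpcat3* exon bases. *Emg1*, looked at after its values were seen, did not pass the test (log2 fold change 0.04, adjusted p = 0.562).

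*Alox15* (ENSMUSG00000018924, minus strand of chromosome 11, 70344152 to 70352031) encodes the lipoxygenase that oxidizes polyunsaturated fatty acids also within phospholipids. It gave 150, 101 and 140 counts in WT replicates and 243, 257 and 222 counts in knockout replicates, or 7.73, 5.004 and 5.54 CPM against 8.82, 9.42 and 9.26 CPM. All knockout libraries were above all WT libraries, but WT replicate 1 came close to them and the WT libraries were spread more widely. The log2 fold change was 0.60 (SE 0.14, adjusted p = 0.00446) and 0.73 with the hepatocyte term. It ranged from 0.48 to 0.79 when 1 library was left out, and the call was kept each time (highest adjusted p = 0.023).

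Ranked by TPM in WT ASCs, the 10 genes were *Acsl3* (110 ± 3.78 TPM, SD, n = 3), *Lpcat3* (88.6 ± 2.10), *Dhodh* (36.7 ± 1.54), *Acsl4* (25.4 ± 0.556), *Acsl1* (10.6 ± 0.694), *Aifm2* (10.4 ± 0.503), *Alox15* (7.33 ± 1.74), *Acsl5* (6.85 ± 0.179), *Gch1* (3.33 ± 0.506) and *Acsl6* (1.46 ± 0.180). *Acsl1* and *Aifm2* could not be separated in this order, nor could *Alox15* and *Acsl5*. The upper 4 places were the same in the knockout, at 93.4, 75.6, 28.8 and 22.7 TPM. Below them the order changed: *Alox15* (10.95 ± 0.557 TPM) and *Acsl5* (10.6 ± 0.516) stood above *Acsl1* (8.03 ± 0.304) and *Aifm2* (6.66 ± 0.340), and *Acsl6* (1.25 ± 0.206) stood above *Gch1* (1.02 ± 0.0478). *Gch1* exceeded *Acsl6* in every WT library and was below it in every knockout library. Listed lengths cover all exons of a gene, so a TPM understates a gene that mainly uses a short isoform.

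The neighbouring genes of these pathways were counted from lists compiled by hand. Of 97 tested genes on 8 lists, 22 were higher and 25 were lower in the knockout, and their median log2 fold change was 0.00. Among all tested genes 21.0% were higher and 20.8% lower. With library totals in place of TMM, 15 were higher and 31 lower, and of all calls 61.9% were decreases in place of 49.7%.

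Beside the Acsl genes, 15 other acyl-CoA synthetase and fatty acid transport genes were tested, of which 3 rose and 5 fell. With 1 library left out, 2 to 5 rose and 4 to 6 fell, the 5 increases being without knockout replicate 1. *Acsm3*, a medium-chain synthetase gene, fell by 1.70 on the log2 scale (SE 0.33, adjusted p = 0.00121) from a low level of 36, 35 and 49 counts to 8, 15 and 21. *Acss2*, whose product makes acetyl-CoA from acetate outside mitochondria, fell by 0.66 (SE 0.10). The fatty acid transport genes *Slc27a3* and *Slc27a4* rose by 0.68 (SE 0.06) and 0.44 (SE 0.06). The median over this list was −0.23, and it turned to 0.11 with the hepatocyte term.

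Beside *Lpcat3*, 2 of 13 lysophospholipid acyltransferase genes rose and 3 fell, with a median of 0.02 (1 to 2 and 3 to 4 with 1 library left out). *Mboat1* rose by 0.84 (SE 0.17), *Lpcat1* rose by 0.14 (a call lost with the replicate block, the hepatocyte term, library totals and in 4 of 6 fits without 1 library), *Lclat1* fell by 0.58 (SE 0.11) and *Mboat2* fell by 0.37 (SE 0.06). Among 19 genes of fatty acid desaturation and elongation, 6 rose and 6 fell (3 and 6 with library totals in place of TMM). With 1 library left out, 3 to 6 rose and 3 to 5 fell, the lowest counts of 3 and 3 being without knockout replicate 1, and with the hepatocyte term 2 rose and 5 fell. *Fads3* rose by 1.02 (SE 0.24) from 21, 19 and 20 counts to 58, 53 and 39, and *Scd3*, a stearoyl-CoA desaturase gene, rose by 0.34, a call lost in 3 of 6 such fits, with DESeq2, with the hepatocyte term and with library totals. *Hacd4* fell by 0.78 (SE 0.26, a call lost in 4 of 6 and with DESeq2) and *Elovl7*, an elongase gene, fell by 0.75 (SE 0.13).

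Beside *Alox15*, 11 other genes of lipid peroxidation and eicosanoid synthesis were tested. *Alox5*, the arachidonate 5-lipoxygenase gene, rose by 0.92 (SE 0.18, adjusted p = 0.00116) from 45, 43 and 77 counts to 126, 117 and 132. *Ptgs2*, which encodes cyclooxygenase-2, rose by 0.53 (SE 0.15), a call lost without knockout replicate 3. The epidermal lipoxygenase genes *Alox12b* and *Aloxe3*, both low, fell by 1.12 (SE 0.29) and 0.93 (SE 0.30), and the call of *Aloxe3* was lost with DESeq2, with the hepatocyte term and in 4 of 6 fits without 1 library. In all, 3 of the 11 rose and 3 fell (2 to 4 and 2 to 3 with 1 library left out; 2 and 2 without knockout replicate 3). Of 8 genes of ether lipid synthesis, which supplies another substrate of peroxidation, *Far1* and *Gnpat* fell by 0.27 and 0.21, and *Selenoi* rose by 0.24.

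**Figure D4:**
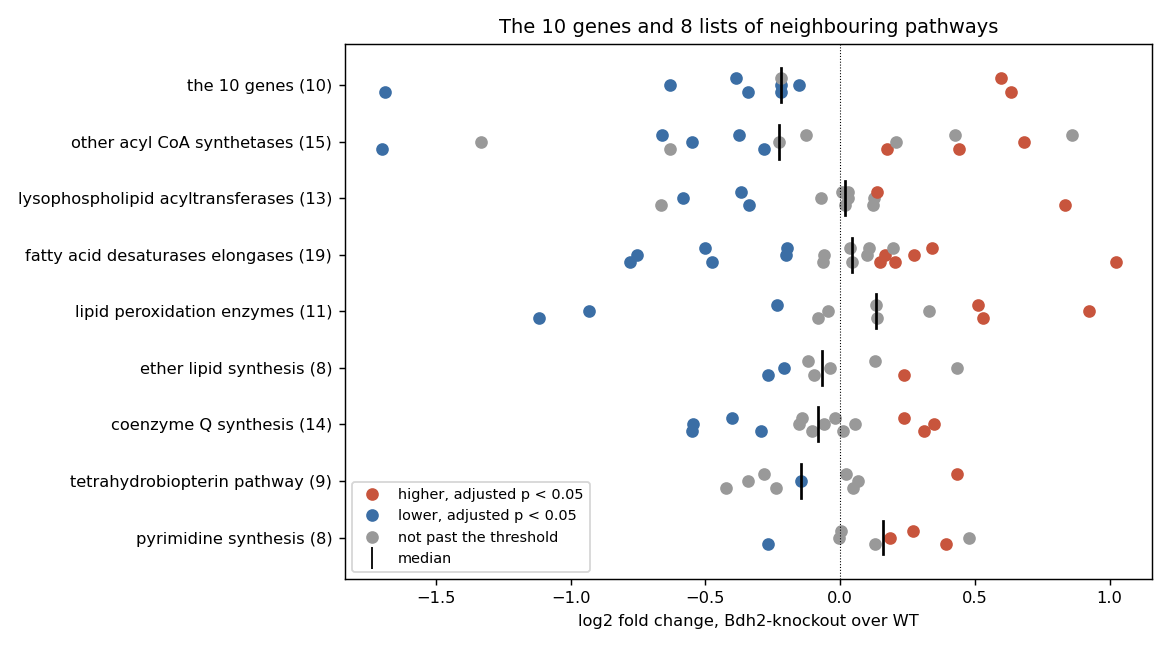
Log2 fold change (x axis, *Bdh2*-knockout over WT) of the 10 genes and of the tested genes of 8 neighbouring lists (number tested in parentheses); each point is 1 gene, and the vertical bar is the median. Medians of the neighbouring lists lie between −0.23 and 0.16, and each list holds both increases and decreases.

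Whole chromosomes that carry the 10 genes are described here without a test. Whether the dosage of a chromosome, or of part of one, has a part in the changes above was not tested. Median log2 fold changes of the tested genes were between −0.07 and 0.02 on the 8 chromosomes that carry the 10 genes. On chromosome 14, which carries *Gch1*, the median was 0.01, and on chromosome 19, which carries *Acsl5*, it was 0.02. It was −0.07 on chromosome 6, which carries *Lpcat3*, and −0.07 on chromosome 8, which carries *Acsl1* and *Dhodh*. Chromosome 16, with a median of 0.19, carries 0 of the 10 genes. *Acsl6* and *Alox15* lie on the same chromosome, as do *Acsl1* and *Dhodh*.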

How the data were processed

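RNA of 6 samples, 3 per genotype, was measured by Illumina sequencing. After trimming and quality filtering, the authors aligned reads to GRCm38 with Hisat2 2.0.5 and assigned them to genes with FeatureCounts. They deposited the raw counts, not normalized, with a position and a length for each gene. The annotation release, strand setting and treatment of reads with several matches are not given in the sources used here. The labels name Trizol and the methods a column kit for the RNA extraction.

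Counts were analysed with edgeR 4.0.16 in R 4.3.3 (TMM, filterByExpr, quasi-likelihood test on genotype, adjusted by Benjamini-Hochberg over the 16758 tested genes and called under 0.05). Adjusted p-values in the report come from this test unless another is named. CPM are TMM-normalized. TPM were computed from counts and listed lengths, and single values of 3 against 3 were compared by a two-sided exact permutation test in scipy 1.17.1. The hepatocyte term is the mean log2 CPM (0.5 added) of 25 genes in each library. Exon overlap and 50-base stretches were taken from GENCODE M21, and promoters from RefSeq. Plots were drawn with matplotlib 3.10.9. Alternatives were DESeq2 1.42.0, limma-voom (limma 3.58.1), other scaling and filters, the replicate block, the hepatocyte term, a test against 1.2-fold and each library left out. In simulated counts for these 3 against 3 libraries, edgeR called 152 of 200 genes changed by 1 on the log2 scale, with 14 false calls among 16493 genes. The setting differs from the data, where 41.7% of all tested genes were called. Apart from *Gch1*, the genes chosen by name changed by less than 1 on the log2 scale. The simulation therefore cannot show how often such smaller changes are found, or how many calls are false, in these data.

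The 10 genes, the lists, and the alternatives with hepatocyte transcripts were chosen with earlier results of these data known. Named genes are the 10 genes, *Bdh2*, *Gpx4*, *Alb*, and up to 2 largest increases and 2 largest decreases among the called genes of each list. *Ass1* and the genes whose exons overlap those of the 10 genes (*H2afy2*, *Zdhhc6*, *Utp14b*, *Emg1*) were named after their values were seen. Motifs were chosen after values were seen. Libraries of 1 genotype differed by more than counting error, so none was taken as a duplicate of another. How much counting error adds to the spread at each level of expression was not tested, and 3 counts were taken as the floor.

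The deposited gene lengths, but no comparison columns of the authors, were used.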

Additional observations from a re-analysis of the deposited data

How the results depend on the processing

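For *Gch1*, *Aifm2*, *Acsl5* and *Alox15* the direction and the call were kept in all 16 alternatives. *Acsl1*, *Acsl3*, *Dhodh* and *Lpcat3* kept their direction in all and lost the call only in the test against 1.2-fold. In that test 2 of the 10 genes were lower in place of 7, 7 genes of the neighbouring lists were higher and 9 lower in place of 22 and 25, and 2457 of all genes were called in place of 6996. It asks for larger changes by construction. *Acsl4* kept its direction but lost the call in 11 of 16. *Acsl6* was called in 0 of 16, with adjusted p from 0.0811 to 0.799, and its log2 fold change was −0.47 without the 3 libraries highest in hepatocyte transcripts (WT replicates 1 and 2, knockout replicate 2). That fit, added after seeing the data, assumes that the lone WT library varies like the others, and it called 2 of the 10 genes higher and 6 lower. A replicate block in the model gave 6452 calls over all genes and 8 among the 10 genes (2 higher, 6 lower), *Acsl4* being lost (adjusted p = 0.0661), and it changed no other call among them. Deviations of same-numbered samples correlated at −0.16, 0.05 and 0.21, and those of differently numbered samples at −0.30 to 0.30. With 3 samples per genotype this comparison cannot show whether same-numbered samples were paired.

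The summed Acsl level differed by −17.9 TPM, and by −5.73 FPKM on the TMM-scaled library size, another unit. The difference of the *Acsl1* share was −0.962 points, and −1.90 points as a share of raw counts. Differences of the *Acsl4* and *Acsl6* shares, which overlapped between genotypes, turned with the library left out: between −0.0949 and 0.521 points for *Acsl4* (−0.0949 without WT replicate 1 and −0.0355 without knockout replicate 3), and between −0.114 and 0.0240 points for *Acsl6* (0.00917 without WT replicate 3 and 0.0240 without knockout replicate 3). The cause was not tested. Depth limits *Gch1* and *Acsl6* most, with 53 to 167 and 86 to 136 counts per library.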
